A study of Homo sapiens with 8 samples.

Results

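The factors described here cut, poly(A)-tail, survey and degrade messenger RNA. They are 48 genes, listed by function with earlier results of these data known. The list holds 12 of nonsense-mediated decay (NMD) and the exon junction, 10 that bind AU-rich elements and 7 of deadenylation. It also holds 9 of decapping and exonuclease decay, and 10 of 3′ end cleavage and polyadenylation. Of the 48 genes, 40 had a gene-level feature, called a transcript cluster, annotated to that gene alone, among 22011 clusters. Exon-level probesets annotated in the same way were present for 46, among 287329. AUF1 was matched as HNRNPD. SMG1, CASC3, RNPS1, CNOT1, CPSF1 and CSTF3 were read only at the exon level, where their probesets name a single gene, and UPF3A and UPF3B were not analysed here. DCP1B lay among the dimmest 40% of clusters and was not tested at the gene level, which left 39 members tested.

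MDA-MB-231 cells, an established line from a human breast cancer that lacks hormone receptors, carried a lentivirus for stable expression of an shRNA against the integrin α3 subunit (2 cultures) or of a control shRNA (2 cultures), and were grown as adherent cultures in serum-containing medium. RNA of each culture was read on 1 array (Affymetrix Human Exon 1.0 ST). The deposited gene-level and exon-level summaries rest on the same 4 arrays. The labels give 1 α3 hairpin without its sequence, no rescue and no statement on clones. Effects of α3 loss, of the hairpin and of differences between the transduced populations therefore cannot be told apart, and in bulk RNA fewer expressing cells cannot be told apart from less RNA per cell. Values are PLIER intensities, a linear summary of probe brightness made by the authors, and 4 arrays limit their precision.

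NMD destroys transcripts that end translation too early. An exon junction complex left behind by splicing marks the message, and a terminating ribosome upstream of it activates the helicase UPF1, which the kinase SMG1 phosphorylates. AU-rich elements in 3′ untranslated regions of cytokine, growth factor and cyclooxygenase messages bind proteins that either recruit deadenylases and decapping enzymes or shield the message. Both routes converge on removal of the poly(A) tail, removal of the cap and digestion from either end. Cleavage factors act earlier, since they choose where the tail is added and so which elements a message carries.

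The arrays matched their labels at the target. ITGA3 measured 619 and 644 in α3 knockdown, against 3480 and 3529 in control (log2 difference -2.44, limma adjusted p = 8.05e-05). Median gene-level intensity was 168 and 171 in knockdown, against 177 and 186 in control, and log2 values correlated across clusters at 0.992 between the knockdown arrays, 0.990 between the controls and 0.979 to 0.982 across groups. Of 4 markers known to be high in this line, summed at 10470 and 10480 in knockdown against 11670 and 12500 in control, EGFR was higher (log2 difference 0.66, adjusted p = 0.00449), AXL was lower (-0.52, adjusted p = 0.00692), and VIM (-0.17) and CD44 (-0.23) did not pass. Of 6 known to be low, summed at 872 and 928 in knockdown against 825 and 868 in control, ERBB2 was lower (-0.45, adjusted p = 0.0170), EPCAM (0.19) and GATA3 (0.22) did not pass, and ESR1, PGR and CDH1 were too dim to be tested. CDH1, E-cadherin, read 177 and 168 in knockdown, against 25.4 and 28.8 in control. Summed markers of leukocytes (4 genes) were 381 to 459 in knockdown, against 372 to 393 in control, those of endothelium (4 genes) 289 to 318, against 322 to 338, and those of fibroblasts (5 genes) 545 to 556, against 345 to 349. PDGFRB (271 and 262 in knockdown, 74.0 and 80.0 in control) made up most of the fibroblast difference. No listed marker read 0, and the part of these markers in the results below was not tested.

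Most of the decay and 3′ end machinery did not pass the test. Of 39 members tested, 5 were lower in knockdown (RBM8A, CELF2, RBM3, ZFP36L1 and PARN), 2 were higher (DCP2 and DCP1A) and 32 did not pass, by limma on log2(intensity + 16) with a Benjamini-Hochberg adjusted p under 0.05 over all 13206 clusters tested. The members called were 17.9% of those tested, close to the background: among all 9229 genes with 1 symbol 22.9% were called (16.8% lower and 6.09% higher), and among all clusters 21.3% (15.3% lower and 5.99% higher). Their median log2 difference was -0.04, beside -0.06 over all genes with 1 symbol. It turned positive after quantile normalization (0.02) and after centring each array on its median (0.05). There 4 and 5 members were higher, and 5 lower in each case. The median over all clusters also turned positive (0.02 and 0.04). Of all genes with 1 symbol, 10.5% and 11.4% were then higher, and 14% and 12.8% lower. Knockdown and control arrays did not overlap in 25 of the 39 members (64.1%, against 64.7% of all such genes).

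**Figure D1:**
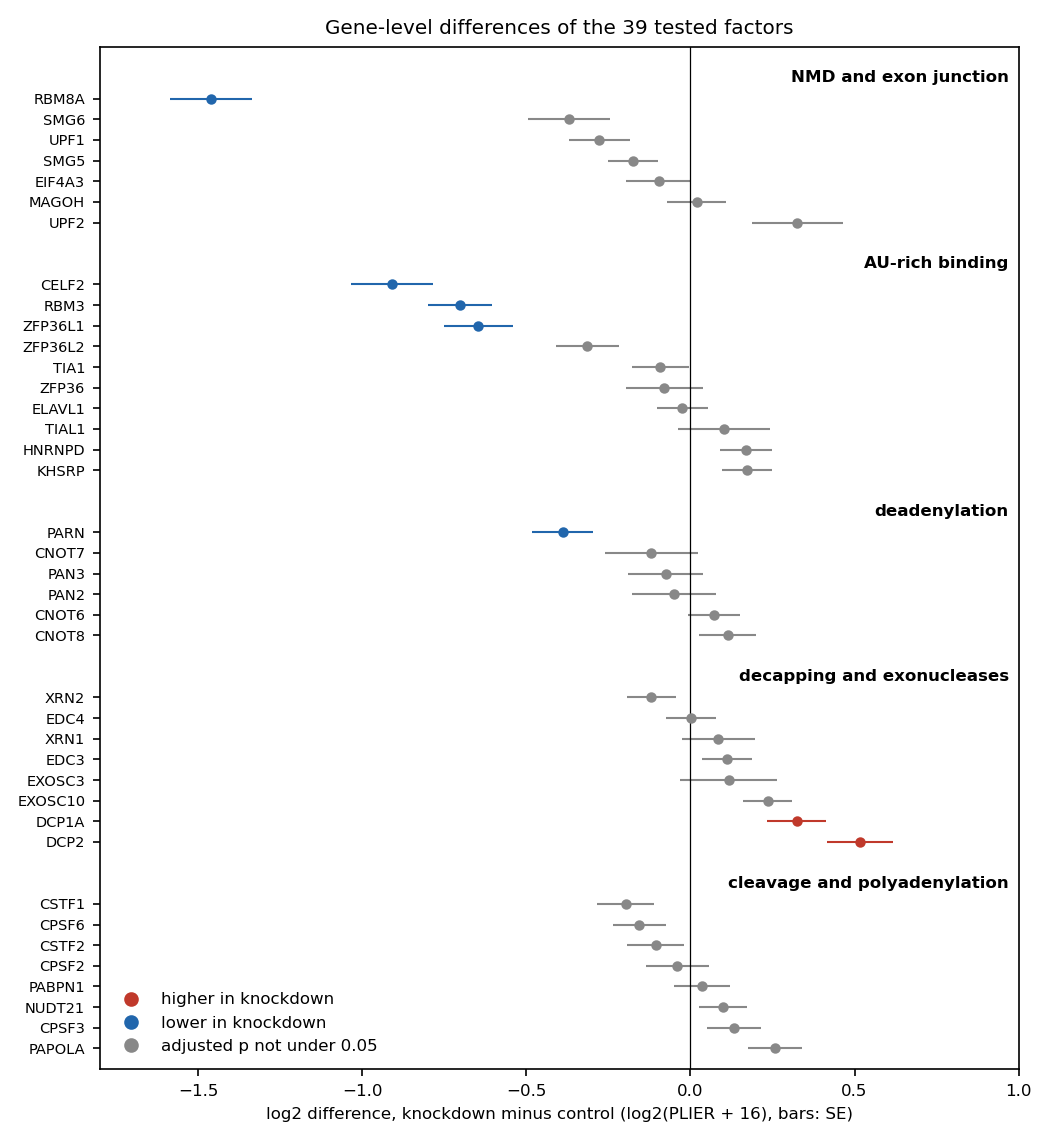
Log2 difference of knockdown minus control for each of the 39 tested members, grouped by role, with bars of 1 standard error (4 arrays). RBM8A at -1.46 lies lowest and DCP2 at 0.52 highest, the 8 cleavage factors lie between -0.20 and 0.26, and grey points did not pass the test.

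The NMD and exon junction class had 1 member lower and 0 higher of 7 tested, with a median of -0.17. Its share called was 14.3%, against 22.9% of all genes with 1 symbol. RBM8A encodes Y14, which forms the core of the exon junction complex with MAGOH and EIF4A3. It read 196 and 200 in knockdown, against 640 and 513 in control. Both knockdown arrays lay below both controls, a 2.91-fold difference of the means (log2 difference -1.46 ± 0.12 (SE), adjusted p = 0.00193), and limma called it under all 12 alternative settings.

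The size of the RBM8A difference depended on the summary. At the exon level, 11 of its 13 tested probesets had negative differences, with a median of -0.60 and a range of -1.55 to 0.69, and 8 were lower by limma. Averaging the 13 probesets on the log2 scale gave -0.58 ± 0.094 (SE, adjusted p = 0.00329), less than the gene-level value. The median of the probeset levels gave -1.27 (adjusted p = 0.000269) but -0.55 with dim probesets included (adjusted p = 0.0841), and it compares different probesets in different arrays. Probesets 2356201 and 2356203 were the lowest relative to the rest, with 694 and 675 in knockdown against 2327 and 1782 in control for the first. RBM8A has processed pseudogene copies, and further clusters naming RBM8A together with another gene were not used.

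Its partners did not move with it past the test. MAGOH, which holds Y14 in the complex, read 852 and 921 in knockdown, against 830 and 921 in control (log2 difference 0.02, adjusted p = 0.908), and the helicase EIF4A3 read 1848 and 1949, against 1874 and 2200 (-0.10, adjusted p = 0.541). MAGOH is nearly identical to MAGOHB, so their probes may not separate them. MAGOHB itself read 828 and 743 in knockdown, against 1038 and 1281 in control, and was lower by limma (-0.55, adjusted p = 0.0254). That call was lost without either knockdown array, control replicate 2 or the filter (adjusted p = 0.0524 to 0.121). The other core member CASC3 and the peripheral activator RNPS1 were read by 18 and 16 probesets, whose mean differences were -0.06 and 0.04, and neither passed (adjusted p = 0.722 and 0.769).

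Of the NMD effectors UPF1, UPF2, SMG5 and SMG6, 0 passed limma at the gene level, where UPF1 and SMG6 had an unadjusted p under 0.05, and 0 of their single probesets passed. UPF1 read 689 and 743 in knockdown, against 822 and 922 in control (log2 difference -0.28 ± 0.093 (SE), adjusted p = 0.0832), and all 27 of its tested probesets had negative differences. SMG6, the endonuclease that cuts the target message, read 256 and 276, against 313 and 387 (-0.37 ± 0.13 (SE), adjusted p = 0.0855), with 23 of 24 probesets negative. UPF2, which bridges UPF1 to the junction complex, read 221 and 245, against 162 and 205 (0.33 ± 0.14 (SE), adjusted p = 0.151), with 23 of 24 probesets positive. UPF2 passed after quantile normalization (0.42, adjusted p = 0.0476) but not after centring (0.0525). Knockdown and control arrays did not overlap for any of these 3 genes, nor for 64.7% of all tested genes with 1 symbol. Probesets of a gene share the same RNA and arrays and are not replicates. After quantile normalization and centring neither SMG6 (adjusted p = 0.100 and 0.103) nor UPF1 (0.0889 and 0.139) passed. SMG6 differed by -0.52 without control replicate 1 and by -0.22 without control replicate 2. SMG5, which recruits decay enzymes, had a difference of -0.17 (adjusted p = 0.164), and SMG1, whose pseudogene copies make its probes uncertain, had a probeset mean of 0.16 (adjusted p = 0.421).

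Among 13 other NMD and junction factors tested, 1 was higher and 3 were lower, where 6.09% and 16.8% of all genes with 1 symbol were. PNN, which encodes pinin, a peripheral junction protein, read 785 and 1003 in knockdown, against 282 and 377 in control (log2 difference 1.40, adjusted p = 0.00482). This rise held under all 12 alternative settings. SMG9, a cofactor of SMG1, was lower (-0.50, adjusted p = 0.0213), a call lost without control replicate 2 or either knockdown array (adjusted p = 0.0604 to 0.129). The other lower gene, named after its value was seen, was DHX34 (-0.42, adjusted p = 0.0274).

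The promoters of 3 members are shown because each was called at both the gene level and the exon-level median and has a single listed start. RBM8A and RBM3 were lower, and DCP2 was higher in knockdown. Each window runs from 250 bases before to 50 bases after the start, from NCBI RefSeq on GRCh38.p14. RBM8A lies on the minus strand at chr1:145927435-145927734, RBM3 on the plus strand at chrX:48574234-48574533 and DCP2 on the plus strand at chr5:112976548-112976847. Capitals mark matches on either strand to 3 motifs. The GC box, which binds factors of the Sp family, was searched as GGGCGG. The core of the sites of ETS factors was searched as CCGGAAG. The box bound by the factor NF-Y was searched as CCAAT and is called the NF-Y box here. In RBM8A a GC box and an NF-Y box overlap.
RBM8A: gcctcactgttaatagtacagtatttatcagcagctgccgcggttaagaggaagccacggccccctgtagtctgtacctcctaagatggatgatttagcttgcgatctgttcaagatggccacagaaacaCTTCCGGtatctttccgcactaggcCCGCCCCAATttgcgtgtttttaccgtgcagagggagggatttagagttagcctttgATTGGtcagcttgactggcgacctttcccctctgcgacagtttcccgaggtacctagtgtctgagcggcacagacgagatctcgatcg
RBM3: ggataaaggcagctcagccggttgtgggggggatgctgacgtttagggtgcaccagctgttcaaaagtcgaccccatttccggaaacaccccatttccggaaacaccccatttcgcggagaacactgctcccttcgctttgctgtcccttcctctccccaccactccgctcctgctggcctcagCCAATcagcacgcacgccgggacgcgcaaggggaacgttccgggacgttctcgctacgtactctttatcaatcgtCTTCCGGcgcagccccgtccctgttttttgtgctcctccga
DCP2: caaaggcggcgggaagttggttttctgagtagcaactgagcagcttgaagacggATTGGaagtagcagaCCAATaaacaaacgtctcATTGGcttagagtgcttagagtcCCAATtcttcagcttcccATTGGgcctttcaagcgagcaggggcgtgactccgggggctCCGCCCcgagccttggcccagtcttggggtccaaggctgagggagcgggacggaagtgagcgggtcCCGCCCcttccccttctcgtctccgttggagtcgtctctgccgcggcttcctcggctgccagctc
The RBM8A window held 1 GC box, 1 ETS core and 2 NF-Y boxes. The RBM3 window held 1 ETS core and 1 NF-Y box, and the DCP2 window 2 GC boxes, 5 NF-Y boxes and no ETS core match. Over the 71 windows of the 42 matched members, 69.0% held the GC box, 23.9% the ETS core and 36.6% the NF-Y box, against 45.0%, 10.3% and 34.6% of all 35116 promoter windows. The cyclic AMP element (TGACGTCA) was in 11.3% of the members' windows (8 windows, of 6 members) and 1.85% of all windows. The AP-1 site (TGANTCA) was in 2.82% and 7.71%, the E-box (CACGTG) in 8.45% and 7.26%, and the TATA box (TATAAA) in 4.23% and 11.5%. None of these 4 was in the 3 windows shown. Some members have several windows, and all windows were counted whether or not their gene was tested here. A match describes letters in the window and no bound factor was measured.

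The AU-rich binding class had 3 of 10 tested members lower, 0 higher and 7 not passing. That is 30.0% called, beside 22.9% of all genes with 1 symbol, and with 10 members the class cannot be told from that share. Its median was -0.09. After centring it was positive (0.00478), as was that of all clusters (0.04), and KHSRP was also higher. CELF2, an RNA-binding protein of splicing and message stability that binds AU-rich elements of the cyclooxygenase-2 message, read 264 and 255 in knockdown, against 449 and 561 in control. Both knockdown arrays lay at about the same level, below both controls (log2 difference -0.91 ± 0.12 (SE), adjusted p = 0.00646). At the exon level, 20 of 21 tested probesets of CELF2 were negative and 8 were lower, with a probeset mean of -0.80 ± 0.13 (SE, adjusted p = 0.00330). The exon-level median of CELF2 (-0.74, adjusted p = 0.0180) was no longer called without control replicate 2 or either knockdown array (0.0521 to 0.0774). Probeset 3234851 had a positive difference (0.36, not passing), with 2581 and 2368 in knockdown against 2176 and 1698 in control.

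RBM3, a cold-inducible protein that binds AU-rich messages and is reported to stabilise that of cyclooxygenase-2, read 1524 and 1510 in knockdown, against 2284 and 2690 in control. The arrays did not overlap (log2 difference -0.70 ± 0.097 (SE), adjusted p = 0.00670). Of its 13 probesets 9 were lower, at levels of 1595 to 5631 in control. The 4 others, numbered 3976544 to 3976547 in a row, were dimmer, at 103 to 328 in knockdown and 72.3 to 294 in control. Their differences were 0.06 to 0.36, and 0 of them passed on their own. With all 13 averaged, RBM3 differed by -0.49 ± 0.11 (SE, adjusted p = 0.0124).

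ZFP36L1, a zinc-finger protein that brings deadenylases to AU-rich messages, read 1232 and 1316 in knockdown, against 1829 and 2190 in control (log2 difference -0.65 ± 0.10 (SE), adjusted p = 0.0105). All 10 of its tested probesets were negative, between -0.91 and -0.46, and 6 were lower by limma. Its paralogue ZFP36L2 read 537 and 488, against 673 and 610 (-0.31, adjusted p = 0.0642), with no overlap of the arrays and 9 of 10 probesets negative. After quantile normalization and centring the adjusted p of ZFP36L2 was 0.180 and 0.167. The founding member ZFP36, tristetraprolin, read 124 and 130, against 141 and 130 (-0.08, adjusted p = 0.684). At the gene level CELF2, RBM3 and ZFP36L1 were called under all 12 alternative settings, leaving out each array included.

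**Figure D2:**
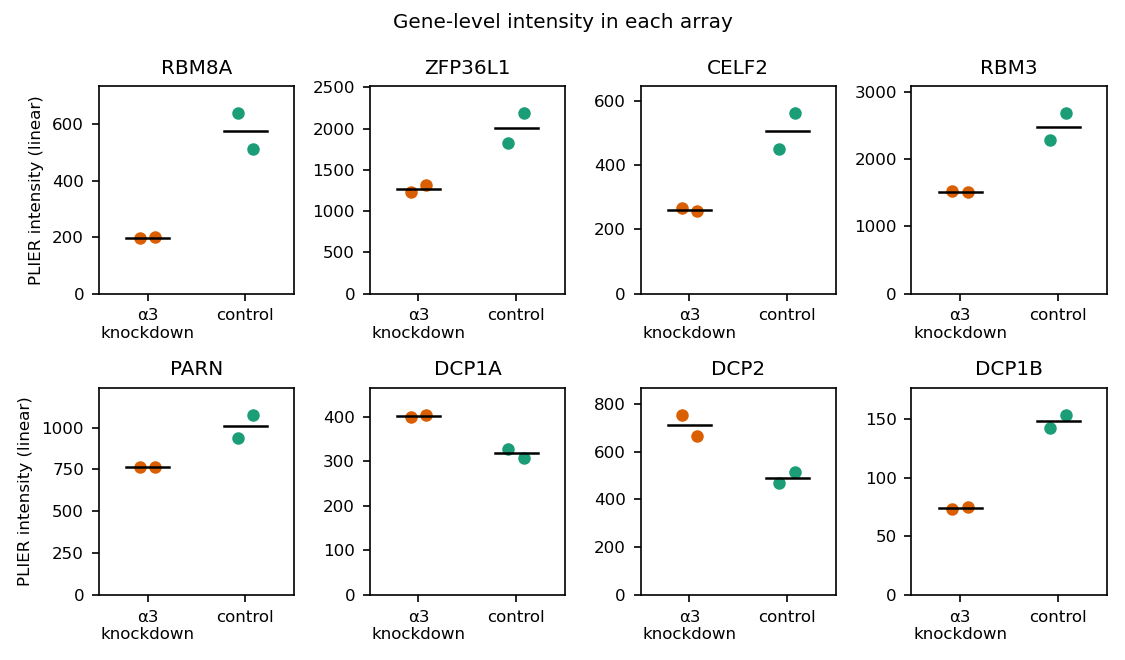
Gene-level PLIER intensity (linear axis from 0) in each knockdown and control array for the 7 called members and DCP1B, with a line at the mean of the 2 arrays. The groups do not overlap in any panel, nor in 64.7% of all tested genes with 1 symbol. RBM8A at 196 and 200 in knockdown against 640 and 513 in control has the largest ratio of means (2.91-fold).

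The other AU-rich binders had small differences. KHSRP, a decay-promoting KH-domain protein, read 1256 and 1309 in knockdown, against 1106 and 1166 in control (log2 difference 0.17, adjusted p = 0.164), and passed after centring alone among the scalings (0.26, adjusted p = 0.0417, range over its alternatives 0.0417 to 0.558). HNRNPD, whose isoforms are known as AUF1, read 4178 and 4167, against 3568 and 3862 (0.17, adjusted p = 0.185). The stabilising protein ELAVL1 (HuR) differed by -0.02 and the stress-granule proteins TIA1 and TIAL1 by -0.09 and 0.10, all with overlapping arrays. Of 8 other binders tested, 1 was lower, where 16.8% of all genes with 1 symbol were. It was PCBP1, a poly(C)-binding protein, with 1640 and 1648 in knockdown against 2341 and 2322 in control (-0.50, adjusted p = 0.00716). ZC3H12A, the RNase regnase-1, differed by -0.38 (adjusted p = 0.0522) and CELF1 by -0.20.

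Of 18 tested transcripts known for AU-rich elements, 12 were lower and 0 higher, with a median of -0.59, where 16.8% of all genes with 1 symbol were lower. After quantile normalization 11 were lower (14% of all such genes), and after centring 10 (12.8%). PTGS2, cyclooxygenase-2, read 8.61 and 8.20 in knockdown, against 1278 and 1137 in control (log2 difference -5.65, adjusted p = 3.74e-05). CCL2 (-3.81, adjusted p = 0.000195) and IL11 (-1.29, adjusted p = 0.000921) were also lower. These transcripts were listed with earlier results of the same arrays known, and transcription and decay are not separated by these arrays. Of 8 natural NMD substrates tested, 0 passed limma at the adjusted threshold, under every scaling tried, and their median log2 difference was 0.06. Over all genes with 1 symbol 22.9% passed in the main setting, with a median of -0.06, and 8 genes cannot be told from that share. ATF4 (-0.41, adjusted p = 0.0508) and GADD45B (-0.25, adjusted p = 0.0740) had the smallest p, both under 0.05 before adjustment (0.0109 and 0.0195), followed by NAT9 (-0.20, adjusted p = 0.224). The others were positive, namely SRSF3 (0.13), TBL2 (0.12), TRA2B (0.12), GADD45A (0.09) and DDIT3 (0.03). These are values of whole genes, which do not separate a gene's isoforms. With the dimmest 60% left out ATF4 passed (adjusted p = 0.0446), but not after quantile normalization (0.0732) or centring (0.0733).

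Deadenylation factors had 1 of 6 tested members lower and 0 higher (16.7% called, against 22.9% of all genes with 1 symbol). PARN, a poly(A)-specific ribonuclease, read 763 and 762 in knockdown, against 935 and 1078 in control. The arrays did not overlap (log2 difference -0.39 ± 0.093 (SE), adjusted p = 0.0323), and all 24 tested probesets were negative. PARN passed in 8 of 12 alternatives, among them the fit without control replicate 1 (-0.49, adjusted p = 0.0217), but without control replicate 2, without knockdown replicate 1 or 2, or without the filter the adjusted p was 0.0685, 0.129, 0.148 and 0.0663.

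The core of the CCR4-NOT complex did not pass. Of its catalytic subunits, CNOT8 read 1442 and 1354 in knockdown, against 1359 and 1225 in control (log2 difference 0.11, adjusted p = 0.405), and CNOT6 read 838 and 859, against 780 and 834 (0.07, adjusted p = 0.576). CNOT7 differed by -0.12, with 1 of 13 probesets lower (-0.71), and the scaffold CNOT1, read by 61 probesets, by -0.13 (adjusted p = 0.376). PAN2 and PAN3, which start tail shortening, differed by -0.05 and -0.08, with overlapping arrays. Of 8 other deadenylation factors, 2 were lower, where 16.8% of all genes with 1 symbol were. Both recruit CCR4-NOT to messages. TOB2 read 409 and 391 in knockdown, against 654 and 711 in control (log2 difference -0.75, adjusted p = 0.00450). TOB1 read 783 and 785, against 1036 and 1106 (-0.44, adjusted p = 0.0135), and its call was lost without knockdown replicate 1 (adjusted p = 0.0756) or 2 (0.0860). CNOT4, a ubiquitin ligase of the complex, differed by -0.28 (adjusted p = 0.0810).

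Of 8 decapping and exonuclease members tested, 2 were higher (6.09% of all genes with 1 symbol were) and 0 lower, with a median of 0.11. That is 25.0% called, beside 22.9% of all genes with 1 symbol, and 8 members cannot be told from that share. After quantile normalization and centring the median was 0.19 and 0.21, with 2 and 3 higher, beside 10.5% and 11.4% of all such genes. Over all clusters the median was then 0.02 and 0.04. Members of other classes were also called higher (UPF2 and PAPOLA after the first, KHSRP and PAPOLA after the second). DCP2, the enzyme that removes the cap, read 756 and 666 in knockdown, against 469 and 514 in control. The arrays did not overlap (log2 difference 0.52 ± 0.10 (SE), adjusted p = 0.0172), and all 16 tested probesets were positive, with a mean of 0.46 ± 0.10 (SE, adjusted p = 0.0127). Without knockdown replicate 1 or 2 the adjusted p of DCP2 was 0.112 and 0.0515. DCP1A, the activator that DCP2 binds, read 399 and 405, against 328 and 309 (0.32 ± 0.089 (SE), adjusted p = 0.0490), with 11 of 12 probesets positive. DCP1A passed in 6 of 12 alternatives, and leaving out any 1 array lost the call (adjusted p = 0.0579 to 0.281).

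The paralogue DCP1B went the other way. It read 73.5 and 74.7 in knockdown, against 142 and 154 in control. With the filter on dim clusters lifted it was lower by limma (log2 difference -0.87 ± 0.11 (SE), adjusted p = 0.0170), and at the exon level all 8 tested probesets were negative (exon-level median -0.94 ± 0.16 (SE), adjusted p = 0.00706). That exon-level call held under all 12 alternatives that tested DCP1B. DCP1A and DCP1B are alternative partners of DCP2, and the difference between their changes was not tested.

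The decapping scaffolds and nucleases showed less. EDC3 and EDC4 differed by 0.11 and 0.00, and the cytoplasmic 5′ exonuclease XRN1 by 0.09. The nuclear XRN2 read 2244 and 2257 in knockdown, against 2376 and 2519 in control (-0.12, adjusted p = 0.306). EXOSC10, a catalytic subunit of the nuclear exosome, read 1468 and 1474 in knockdown, against 1278 and 1217 in control (log2 difference 0.24 ± 0.074 (SE), adjusted p = 0.0705). The knockdown arrays lay above both controls, and EXOSC10 passed after centring (0.33, adjusted p = 0.0328, range over alternatives 0.0328 to 0.306). The exosome cap subunit EXOSC3 differed by 0.12 with overlapping arrays. Of 26 other decapping and exonuclease factors, 2 were higher and 4 lower, where 6.09% and 16.8% of all genes with 1 symbol were. EXOSC9 read 1195 and 1315 in knockdown, against 842 and 849 in control (0.56, adjusted p = 0.00790), while EXOSC5, a subunit of the same ring, read 1072 and 1160, against 1503 and 1479 (-0.41, adjusted p = 0.0163). The EXOSC9 call was lost without knockdown replicate 2 (adjusted p = 0.0618) and that of EXOSC5 without knockdown replicate 1 (0.108) or 2 (0.0618). LSM3, of the ring that primes decapping, was higher (0.44, adjusted p = 0.0240), but not without control replicate 1, either knockdown array or the filter (adjusted p = 0.0509 to 0.175). The 3 remaining lower genes, named after their values were seen, were EXOSC6 (-0.34), EIF4ENIF1 (-0.46) and SKIC2 (-0.32). After quantile normalization or centring, 3 of the 26 were higher and 2 lower. Of all genes with 1 symbol, 10.5% and 11.4% were then higher, and 14% and 12.8% lower.

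Of 8 cleavage and polyadenylation factors tested at the gene level, 0 passed limma (22.9% of all genes with 1 symbol did), with 1 under an unadjusted p of 0.05. PAPOLA, the poly(A) polymerase, read 3008 and 3156 in knockdown, against 2463 and 2690 in control (log2 difference 0.26 ± 0.082 (SE), adjusted p = 0.0720). The arrays did not overlap and all 30 tested probesets of PAPOLA were positive, between 0.09 and 0.55. It passed as a probeset mean (0.27 ± 0.083 (SE), adjusted p = 0.0485) and at the gene level after quantile normalization (0.0342) and after centring (0.0212, range over its alternatives 0.0212 to 0.321).

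CSTF3, the CstF subunit that bridges its partners on the GU-rich element downstream of the cut, was read at the exon level only. All 22 tested probesets were positive, between 0.40 and 1.22, and 3 were higher by limma. Probeset 3368571 read 1501 and 1797 in knockdown, against 960 and 1007 in control, and probeset 3368545 read 549 and 690, against 260 and 293. The exon-level median of CSTF3 was 0.83 ± 0.26 (SE, adjusted p = 0.0664) and did not pass, while the probeset mean of 0.80 ± 0.18 (SE) did (adjusted p = 0.0145). Of the other CstF subunits, CSTF1 read 1067 and 1046 in knockdown, against 1144 and 1287 in control (-0.20, adjusted p = 0.161), with all 11 probesets negative. CSTF2, whose probes may also read its copy CSTF2T, differed by -0.11 (adjusted p = 0.441).

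The endonuclease CPSF3 differed by 0.13, its partner CPSF2 by -0.04, and CPSF1, the large scaffold, by 0.21 over 40 probesets (adjusted p = 0.180). NUDT21 and CPSF6, the cleavage factor I subunits that bind UGUA and steer the choice of poly(A) site, differed by 0.10 (adjusted p = 0.385) and -0.16 (adjusted p = 0.226). PABPN1, the nuclear poly(A)-binding protein, differed by 0.04, and its probes may include read-through from BCL2L2. Of 10 other cleavage factors, SYMPK, the symplekin scaffold, was lower, with 804 and 810 in knockdown against 1114 and 1184 in control (-0.50, adjusted p = 0.00900). CPSF4 was higher (0.35, adjusted p = 0.0394). Over all genes with 1 symbol, 16.8% were lower and 6.09% higher. The SYMPK call was lost without knockdown replicate 1 (adjusted p = 0.0554) or 2 (0.0593), and that of CPSF4 without any 1 array (0.0691 to 0.288), the filter (0.0734) or the intensity trend (0.0543). PAPOLG, another nuclear poly(A) polymerase, differed by -0.27 (adjusted p = 0.0538).

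**Figure D3:**
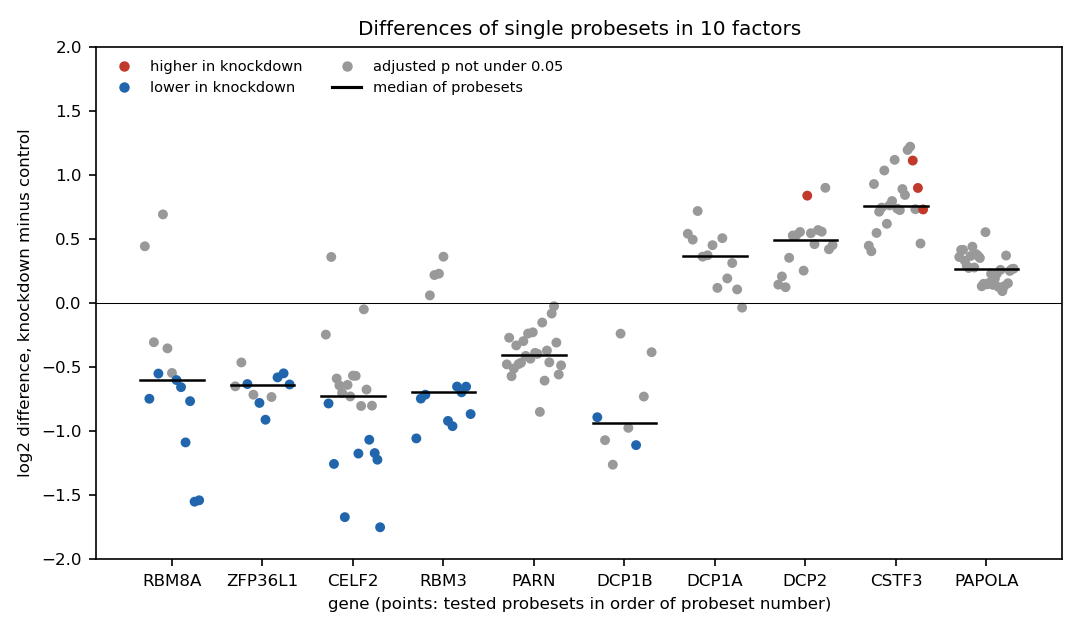
Log2 difference of knockdown minus control for every tested probeset of 10 members, in order of probeset number within each gene, with a line at the gene's median. The probesets of ZFP36L1, PARN and DCP1B lie below 0 and those of DCP2, CSTF3 and PAPOLA above 0, while RBM8A spans -1.55 to 0.69 and RBM3 has 4 neighbouring probesets above 0.

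At the exon level, 45 members had at least 3 tested probesets. By the exon-level median, 5 were lower (RBM8A, CELF2, RBM3, ZFP36L1 and DCP1B) and 1 higher (DCP2), against 9.57% lower and 3.74% higher of 12211 genes (13.3% in all). The DCP2 call (0.48, adjusted p = 0.0403) was lost without control replicate 1 (0.131), knockdown replicate 1 (0.208) or 2 (0.103), and without the intensity trend (0.0621). By the probeset mean, a summary chosen after the data were seen, 6 were lower (those 5 and PARN) and 4 higher (DCP1A, DCP2, CSTF3 and PAPOLA), against 14.9% and 5.86% of genes. Of 984 single probesets of members tested, 34 in 6 genes were lower (3.46%, against 3.25% of all probesets) and 4 in 2 genes were higher (0.407%, against 1.33%), where 4.58% of all probesets were called in either direction. These summaries share the 4 arrays and do not replicate the gene-level result.

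**Figure D4:**
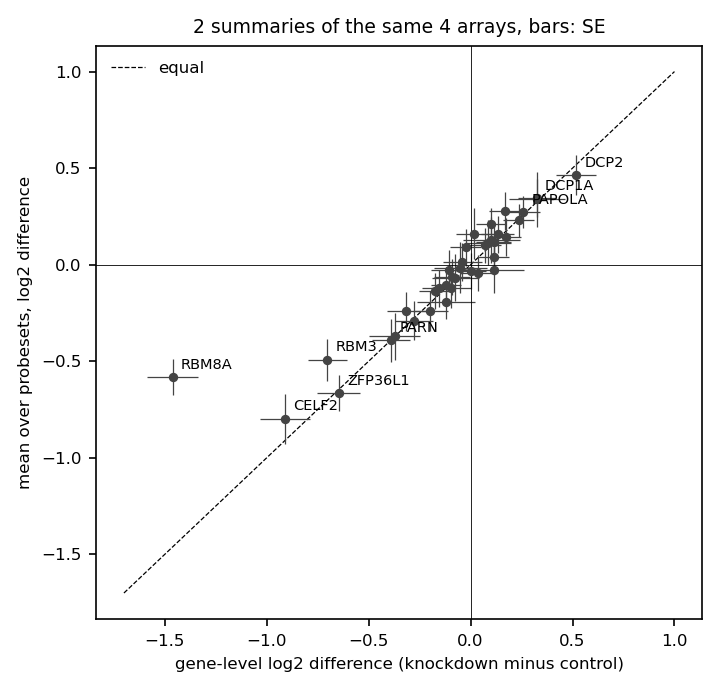
Gene-level log2 difference (horizontal) against the mean log2 difference over a gene's tested probesets (vertical) for the 38 members with both, with bars of 1 standard error and a dashed line of equality. RBM8A, at -1.46 and -0.58, lies farthest from the line, and RBM3, at -0.70 and -0.49, lies above it.

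Unequal change along a gene was tested by setting each probeset against the mean of the others of its gene. Of 982 member probesets, 0 passed limma (smallest adjusted p = 0.223 for RBM8A), 44 had an unadjusted p under 0.05, and limma's diffSplice called 7, where it called 585 (0.376%) of all 155391 probesets tested. Earlier work on these data found many false calls by diffSplice on simulated data, so it served as an alternative only. Over all genes 0.0444% of 155391 probesets passed the main test (0.0257% higher and 0.0187% lower than the rest of their gene), in 0.303% of genes. On simulated data of that size the test recovered 2.44% of single probesets changed 2-fold and 96.7% of those changed 8-fold, so moderate differences in exon use would be missed. The probesets with the smallest p were 2356201 of RBM8A (-1.05 ± 0.18 (SE) relative to the rest of the gene, unadjusted p = 0.000609) and 3234955 of CELF2, which read 884 and 919 in knockdown, against 909 and 958 in control. It differed by 0.79 ± 0.15 (SE) on the log2 scale relative to the rest of CELF2.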

How the data were processed

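RNA of MDA-MB-231 cells with α3 or control shRNA was measured on 4 exon arrays, 2 per group, called biological replicates in the series text. The authors deposited PLIER intensity values on a linear scale for core genes and core exons, made with Affymetrix Expression Console per the submitters' processing notes. The series text names the Affymetrix Exon Array Computational Tool. The sources used here do not give versions, background correction, normalization or build. Symbols came from the platform annotation, updated to current NCBI names. Features with several symbols (2408 gene-level) or none (5171) were tested but not named.

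Intensities were transformed as log2(value + 16), which understates changes of dim genes. The dimmest 40% by mean were left out, and knockdown was set against control in R 4.3.3 by limma 3.58.1 (intensity trend, two-sided, Benjamini-Hochberg over all features, threshold 0.05, 2 residual degrees of freedom). A gene with several clusters is represented by the brightest. Exon-level tests used the median over probesets passing the filter, in genes with at least 3. Plots used matplotlib 3.10.9. The gene-level fit, the exon-level median and the test of unequal change were tested on simulated data. The simulations changed few features and drew noise independently for each feature, while 21.3% of clusters were called in the real data. Shares recovered and false calls may therefore differ in the real data. At 13206 clusters, 75% of 1.5-fold and 100% of 2-fold changes were recovered, with 12 false among 179 calls. The exon-level median recovered 52% of 1.5-fold and 88.5% of 2-fold changes, with 11 false among 148 calls, so it misses many moderate changes. Single-probeset fits, probeset means, cluster means and diffSplice were not simulated here. Members, lists and tests were chosen with earlier results of these data known. All called members are named with values, others by the 2 smallest p per class or by range, and in other lists the 3 smallest p. Alternatives covered offset, filter, variance model, scaling, replicate block, summaries and leaving out each array.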

Additional observations from a re-analysis of the deposited data

How the results depend on the processing

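The 7 members called at the gene level kept their call in 72 of 84 fits (12 alternatives each) and lost it in 12, of which 4 were of PARN, 6 of DCP1A and 2 of DCP2. No value changed sign. The other named members gained a call in 9 fits. The members lower at the gene level numbered 5, and 4 to 6 with 1 array left out. With the mean of a gene's clusters, a fit over fewer features, they numbered 8 of 39, where 21.9% of all genes were lower and 8.62% higher. The members higher numbered 2, and 0 to 1 with 1 array left out, 1 without the filter or the intensity trend, 4 after quantile normalization or with cluster means, and 5 after centring. By exon-level median the members higher numbered 1, and 0 to 1 with 1 array left out, 0 without the trend, 3 with the dimmest 60% left out, 4 after quantile normalization or with probeset means, and 5 after centring. Those lower, 5 in the main setting, ranged from 4 to 5 with 1 array left out. Probesets with unequal change numbered 0, and 7 with diffSplice, which called 0.376% of all probesets. The cause of these shifts was not tested. Over all clusters 791 were higher and 2016 lower. Leaving out control replicate 1 gave 502 and 1904, control replicate 2 908 and 1349, knockdown replicate 1 391 and 693, and knockdown replicate 2 166 and 632. Quantile normalization gave 1354 and 1679, centring 1496 and 1507, and lifting the filter 485 and 1511. A lone array in a group takes its spread from the other group.

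The same replicate numbers occur in both groups, but nothing says that they mark a shared day, and deviations of same-numbered arrays correlated at 0.290 with only 2 pairs. With the replicate block, 8 members were lower and 4 higher at the gene level, 8 lower and 6 higher by exon-level median, and 2 member probesets changed unequally. Calls rose over all features too. Of all 13206 clusters 1324 were higher and 2738 lower, against 791 and 2016 without the block. Probesets with unequal change over all genes numbered 397, against 69 without it. The share of all genes called by exon-level median with the block was not counted. UPF1, SMG6, ZFP36L2 and PAPOLA passed at the gene level with the block (adjusted p = 0.0366, 0.0222, 0.0241 and 0.0405), as did ATF4 (0.0158), ZC3H12A (0.0261), PAPOLG (0.0403) and CNOT4 (0.0499), and PARN (0.0298) and DCP1A (0.0310) passed by exon-level median. With 2 arrays per group, 75% of simulated 1.5-fold changes were recovered at the gene level, and DCP1B fell under the filter on dim clusters.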

Other observations

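Limma's diffSplice called 7 of 982 member probesets, against 0.376% of all 155391 probesets, and the main test called 0 of the 982. Because diffSplice gave many false calls on simulated data in earlier work on these data, its adjusted p values below are not relied on. Of the 7, 4 lay in RBM8A. Relative to the rest of the gene, probesets 2356182 and 2356192 were higher by 1.11 and 1.38 on the log2 scale, and probesets 2356201 and 2356203 differed by -1.05 and -1.04 (diffSplice adjusted p = 0.00250 to 0.0476). Probeset 2356192 of RBM8A was dim, at 120 and 161 in knockdown, against 103 and 61.3 in control. The 3 others were 3234851 of CELF2 (1.22, adjusted p = 0.0239), 3976547 of RBM3 (0.93, adjusted p = 0.0376) and 3847828 of KHSRP (-1.06, adjusted p = 0.00734). The KHSRP probeset read 89.9 and 70.5 in knockdown, against 104 and 240 in control.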
